A study of Mus musculus with 563 samples.

Results

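The LC3 and GABARAP family was followed in single hematopoietic stem cells (HSCs) of mice with a Gfp-Lc3 transgene, read as 6 entries: eGFP, Map1lc3a, Map1lc3b, Gabarap, Gabarapl1 and Gabarapl2. These 6 were taken by name, not by their values, out of 46080 gene and transgene entries in 2 count tables. The tables hold a second transgene entry, a rat Map1lc3b sequence, which was counted beside eGFP and brings the total to 7. All 7 were among the 10723 entries abundant enough for the comparisons.

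LC3 and GABARAP proteins are the mammalian relatives of yeast Atg8, a small ubiquitin-like protein of autophagy. ATG4 proteases cut them behind a glycine close to the carboxyl end, and ATG7, ATG3 and a complex of ATG12, ATG5 and ATG16L1 then join that glycine to a lipid of the forming autophagosome membrane, where cargo receptors bind. In HSCs, autophagy is known for removing mitochondria and for supporting long-term function in old animals. In the GFP-LC3 reporter a green fluorescent protein is joined to LC3, so fluorescence follows the fused protein, while sequencing reads follow its RNA.

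Every cell is labelled as bone marrow, as Gfp-Lc3 in genotype and as isolated at steady state, young cells included, though 9 old cells had no read of the transgene. The groups were young HSCs and old HSCs labelled LO, MID and HI, with ages given only as young and old. The GFP-LC3 signal was recorded for each sorted cell, per the design text, but the labels do not say whether LO, MID and HI rank that signal or another measure. A difference of transgene reads between these groups is therefore not independent of the sort if the sort used that signal. The labels name no animal, promoter or copy number of the transgene, and cells without it were not analysed here. Each group therefore counts as 1 sample, no difference was tested, and the 2 tables, each with cells of all 4 groups, show how far a value repeats.

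Of 563 cells, 533 were kept. The first table held 63 young, 65 LO, 68 MID and 68 HI cells, and the second 71, 71, 66 and 61. A group held 18580222 to 25382151 reads of nuclear genes in each table. The stem cell markers Kit, Meis1, Hlf and Mecom were read in 97.1% to 100% of the kept cells of each group, Procr in 63.4% of young and 84.6% of LO cells, and Slamf1 in 44.03% and 77.2%. Summed over their lists, erythroid markers stood at 0.896 to 7.61 CPM across groups and tables, B cell markers at 0.520 to 1.91, granulocyte and monocyte markers at 347 to 431, and T and NK cell markers at 21.6 to 149.9. Megakaryocyte markers summed to 143.3 to 376 CPM, multipotent progenitor markers to 424 to 789 and dendritic cell markers to 280 to 1352. Here CPM is reads per 1000000 nuclear gene reads of the summed cells, with composition factors. At least 8 of 15 G2 and M phase markers were read in 11.9% of young, 3.68% of LO, 4.48% of MID and 27.9% of HI cells. Nuclear gene reads per spike-in read were 46.9, 49.05, 50.02 and 70.3 in the same order. A count of 20 or more Xist reads was found in all 71 young cells of the second table but in 1 of 63 of the first, where 57 reached that count for Y-linked genes. In the young group, these reads and the table cannot be told apart. In the second table, 62 of 71 LO, 57 of 66 MID and 57 of 61 HI cells reached 20 Y-linked reads, but 0 of 71 young cells. There 3 LO, 0 MID and 2 HI cells reached 20 Xist reads. Old against young values of that table thus also compare cells mostly with Y-linked reads to cells with Xist reads. At least 3 markers of another cell type were read in 24 young, 67 LO, 59 MID and 68 HI cells.

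The coding ends of the 5 mouse members show the site that all of them share. The sequences are the last coding bases without the stop codon, from GENCODE M21 transcripts on GRCm38, written 5′ to 3′. The codon of the glycine that ATG4 exposes is in capitals, and the bases after it encode the part that is cut off.
Map1lc3a: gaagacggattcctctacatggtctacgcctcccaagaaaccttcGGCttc
Map1lc3b: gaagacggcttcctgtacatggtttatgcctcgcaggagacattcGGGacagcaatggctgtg
Gabarap: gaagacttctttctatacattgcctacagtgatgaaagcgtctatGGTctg
Gabarapl1: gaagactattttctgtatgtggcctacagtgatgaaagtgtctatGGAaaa
Gabarapl2: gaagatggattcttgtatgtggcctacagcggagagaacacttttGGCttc
The glycine is codon 120 in the 2 LC3 genes. Map1lc3b has 5 codons behind it and each of the others has 1. Coding sequences were 74.7% identical between Map1lc3a and Map1lc3b and 74.9% between Gabarap and Gabarapl1, and 50.4% to 55.5% across the 2 subfamilies. Gabarapl2 stood between, at 63.1% to Gabarap and 64.5% to Gabarapl1.

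By the rule used here, the transgene was the member whose RNA differed between the old groups. In the first table eGFP stood at 802, 382, 714 and 781 CPM in the young, LO, MID and HI groups. In the second table it stood at 1126, 411, 1049 and 898. LO was the lowest group and young the highest in each table, and MID and HI changed places. The gap between the 2 young values was wider than any gap between young, MID and HI inside a table, and so was that between the 2 MID values. The young gap also sets cells with Y-linked reads beside cells with Xist reads. The order of these 3 groups is therefore not set apart from the spread between tables. The LO values lay below all 6 others. In reads, eGFP had 15538 in LO cells (95% Poisson interval 15295 to 15784), 35985 in MID (35614 to 36359), 41527 in HI (41129 to 41928) and 40744 in young cells (40349 to 41142). These intervals treat reads as independent, which reads without molecular identifiers need not be, so they may be too narrow. Exact intervals of shares of cells, given below, treat cells as independent. Neither kind covers differences between animals.

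On the log2 scale of CPM plus 1, eGFP was higher in HI than in LO cells by 1.03 in the first and 1.13 in the second table, a mean of 1.08 or 2.11-fold. It was higher in MID than in LO by 0.90 and 1.35, a mean of 1.13 or 2.18-fold. An entry is called different when it is at least 1.5-fold apart in the same direction in each table. By that rule both transgene entries and no mouse family gene, 2 of 7, were higher in HI than in LO, where 4.81% of the 10723 entries were called higher and 3.27% lower. The same 2 of 7 were called higher in MID than in LO, where 1.54% of entries were called higher and 1.62% lower. Both entries are parts of 1 transgene, so they do not count as separate calls. In old against young cells, with the old level taken as the mean of the 3 old groups, 0 of 7 were called, against 3.43% called higher and 3.07% lower. There eGFP was at -0.43 and -0.63, past the 1.5-fold bound in the second table alone. In that table young and old cells also differed in Xist and Y-linked reads. The young group enters no comparison among the old groups, but LO, which was at -1.07 and -1.45 against young, enters every old mean. As means of both tables, MID alone was at -0.13 and HI alone at -0.18 against young. Over the 7 entries, 2 of them of the transgene, the median difference was -0.16 in HI against LO and -0.05 in old against young. The medians of all entries were 0.02 and -0.004.

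The gap between LO and HI was as large without cells rich in cell division markers and per spike-in read. When cells with reads of at least 8 G2 and M phase markers were left out, eGFP was higher in HI than in LO by 1.20. Counted per 1000 spike-in reads, eGFP was at 45.6, 19.6, 44.5 and 58.4 in the young, LO, MID and HI groups, and the HI against LO difference was 1.57 on that scale, where the median of all entries shifted by 0.49. Cells with markers listed for another type bear on the MID comparison. Median old against young differences were 1.63 for dendritic, 1.01 for megakaryocyte and 2.63 for T and NK cell markers. For multipotent progenitor markers the median was -1.08, and for granulocyte and monocyte markers 0.005. At least 3 markers of another type were read in 24 young, 67 LO, 59 MID and 68 HI cells. Whether these cells are of another type or are HSCs that read such genes was not tested. Without them MID was above LO by 0.38 in the first table and 1.22 in the second, a mean of 0.80, and 0 members were called, while HI stayed above LO by 0.87 and 0.89 and old against young was at -0.31 and -0.80.

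**Figure D1:**
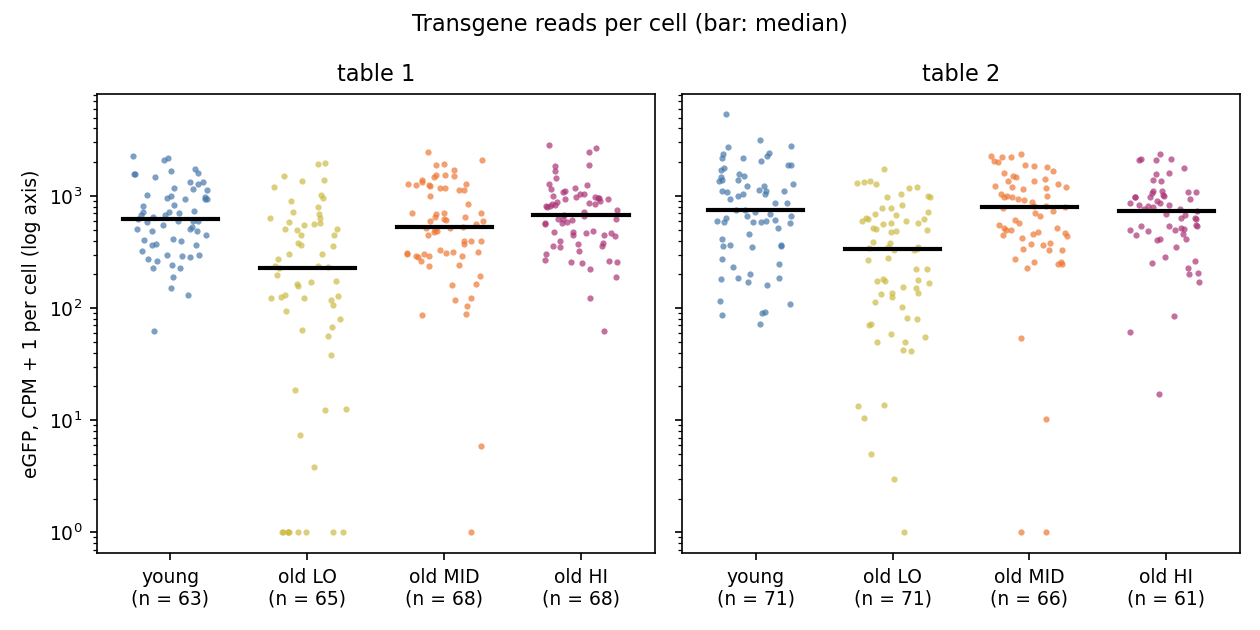
eGFP reads per cell, as CPM plus 1 on a log axis, in young, LO, MID and HI cells of the first (left) and second (right) table; each point is 1 cell and the bar is the group's median. LO cells reach from 0 to 1986 CPM in the first table and have the lowest median in each, while the other 3 groups overlap widely.

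Single cells of the groups overlapped widely. The lowest, median and highest eGFP level per cell in the first table were 0, 228 and 1986 CPM in LO, 0, 524 and 2469 in MID, 61.2, 671 and 2869 in HI, and 61.4, 624 and 2284 in young cells. In the second table they were 0, 336 and 1755 in LO, 0, 790 and 2345 in MID, 16.3, 730 and 2390 in HI, and 71.3, 744 and 5339 in young cells. Of HI cells, 94.1% in the first and 83.6% in the second table lay above the LO median of that table, while 51.5% and 49.2% lay above the young median. Of LO cells, 24.6% and 8.45% lay below the lowest HI cell. LO held more cells at the low end and fewer at the high end. Levels under 100 CPM were found in 26.5% of LO cells (exact interval 19.3% to 34.7%), 5.97% of MID, 3.73% of young and 3.10% of HI cells. Levels above 1000 CPM were found in 11.03% of LO cells (6.31% to 17.5%), 33.6% of MID (25.7% to 42.2%), 24.03% of HI (16.9% to 32.3%) and 34.3% of young cells, so the LO and HI intervals touch at this end.

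Some cells labelled with the transgene had no read of it. Reads of both transgene entries were absent in 7 LO cells (5.15%, exact interval 2.09% to 10.3%), 6 of them in the first table and 1 in the second, and in 2 MID cells, both in the second table. No young and no HI cell lacked both, with exact intervals of 0% to 2.72% and 0% to 2.82%. The 7 LO cells had at least 74254 nuclear gene reads each, and 6 of them had a read of mouse Map1lc3b. Both MID cells had Map1lc3b reads as well. With a limit of 3 transgene reads in place of 0, the counts were 16 LO, 5 MID, 1 HI and 0 young cells. Whether these cells carry or transcribe the transgene was not tested. Leaving out the 9 cells without a transgene read gave a HI against LO difference of eGFP of 0.95 and 1.11.

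The rat Map1lc3b entry gave the same picture at almost the same number of reads. In the first table its young, LO, MID and HI levels were 733, 361, 664 and 750 CPM, and in the second 991, 371, 948 and 850. LO was again below all other values in each table. HI was above LO by 1.05 and 1.20 and MID above LO by 0.88 and 1.35. Between 1.04 and 1.14 eGFP reads were counted per rat Map1lc3b read in every group and table. Across cells the 2 entries rose and fell together, with a mean Spearman correlation of 0.95 over the 8 sets of cells made by group and table (0.92 to 0.97; 57 to 69 cells each). Both are parts of the transgene, counted in the same library of a cell, so this is a check of the entries and not of biology. Per mouse Map1lc3b read, the rat entry had 1.18 and 1.13 reads in LO, 2.28 and 2.88 in MID, 2.77 and 3.24 in HI, and 2.60 and 2.95 in young cells.

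No mouse gene of the family was called in any of the 3 comparisons. Called shares over all entries, higher and lower, were 4.81% and 3.27% in HI against LO and 1.54% and 1.62% in MID against LO. In old against young they were 3.43% and 3.07%. At these shares, no call in so short a list is close to the background and is not a result about these genes. Map1lc3b (ENSMUSG00000031812; GRCm38 chromosome 8, 121590361 to 121598760, plus strand), the gene of the LC3 isoform commonly read as an autophagosome marker, stood at 282, 306, 291 and 271 CPM in the first table, from young to LO, MID and HI. In the second table the levels were 336, 329, 329 and 263. All 8 values lay within a 1.28-fold range, with HI lowest in each table and the other groups in different orders. HI against LO was at -0.18 and -0.32 on the log2 scale, under the 1.5-fold bound, and old against young was at 0.04 and -0.14. The gene overlaps Zcchc14 on the other strand by 58 bases and lies within the span of Gm20388, and how reads in shared parts were assigned is not known.

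Map1lc3a (ENSMUSG00000027602; chromosome 2, 155276297 to 155278073, plus strand), a second LC3 isoform, was low and uneven. From young to LO, MID and HI it stood at 15.8, 18.9, 26.95 and 11.9 CPM in the first table, and at 32.2, 21.7, 25.3 and 17.9 in the second. HI was the lowest group in each table, but the young level changed from the second lowest to the highest. HI was at -0.62 and -0.27 against LO and at -1.11 and -0.48 against MID, each past the 1.5-fold bound in the first table alone, and MID was above LO by 0.49 and 0.21. As a mean of CPM per cell in place of summed reads, the MID against LO difference was -0.09. The median cell had no read of Map1lc3a in any group, and 1 cell held 22.98% of its reads among young cells of the first table and 21.9% among MID cells.

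Gabarap (ENSMUSG00000018567; chromosome 11, 69991143 to 69994951, plus strand), the founder of its subfamily, stood at 138.96, 169.9, 175 and 171 CPM in the first table, from young to LO, MID and HI. In the second table the levels were 174, 191, 185 and 169. Young cells were lowest in the first table and HI cells in the second. HI against LO was at 0.01 and -0.17 on the log2 scale and MID against LO at 0.05 and -0.04. Old against young was at 0.31 and 0.06.

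Gabarapl1 (ENSMUSG00000030161; chromosome 6, 129533160 to 129542346, plus strand), which also goes by GEC1, was the mouse member with the steadiest difference between HI and the other old groups. Its young, LO, MID and HI levels were 275, 334, 307 and 229 CPM in the first table and 262, 326, 356 and 249 in the second. HI was the lowest group in each table and both HI values lay below all 6 others, as for Map1lc3b. HI was at -0.54 and -0.39 against LO and at -0.42 and -0.51 against MID, each under the 1.5-fold bound. When cells with reads of at least 8 G2 and M phase markers were left out, the mean against LO was -0.34 in place of -0.46. Gabarapl1 overlaps 1700101I11Rik on the other strand and Gm44243 on its own.

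Gabarapl2 (ENSMUSG00000031950; chromosome 8, 111940703 to 111953612, plus strand), also known as GATE-16, was the lowest of the GABARAP genes. Its young, LO, MID and HI levels were 15, 15.6, 14.7 and 12.1 CPM in the first table and 13.8, 17.6, 14.8 and 17.8 in the second. HI was the lowest group in the first table and the highest in the second, so no order of the groups repeated. The HI against LO difference was -0.34 and 0.02. Most of its coding sequence is shared with a pseudogene described below, so its level is uncertain to that extent.

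The direction of the differences of mouse members between HI and LO cells, none of them called, depends on what reads are counted against. Per nuclear gene read the mean differences were -0.25 for Map1lc3b, -0.44 for Map1lc3a, -0.08 for Gabarap, -0.46 for Gabarapl1 and -0.16 for Gabarapl2, but per spike-in read they were 0.25, 0.02, 0.41, 0.03 and 0.31. Relative to the median of all entries on the spike-in scale they were -0.26, -0.49, -0.10, -0.48 and -0.20. Old against young likewise changed sign on the spike-in scale for Map1lc3b, from -0.05 to 0.19, and for Map1lc3a, from -0.18 to 0.05, where the median of all entries shifted by 0.24. Amount of RNA per cell and share of it are therefore given side by side, and a cause of the difference was not tested.

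**Figure D2:**
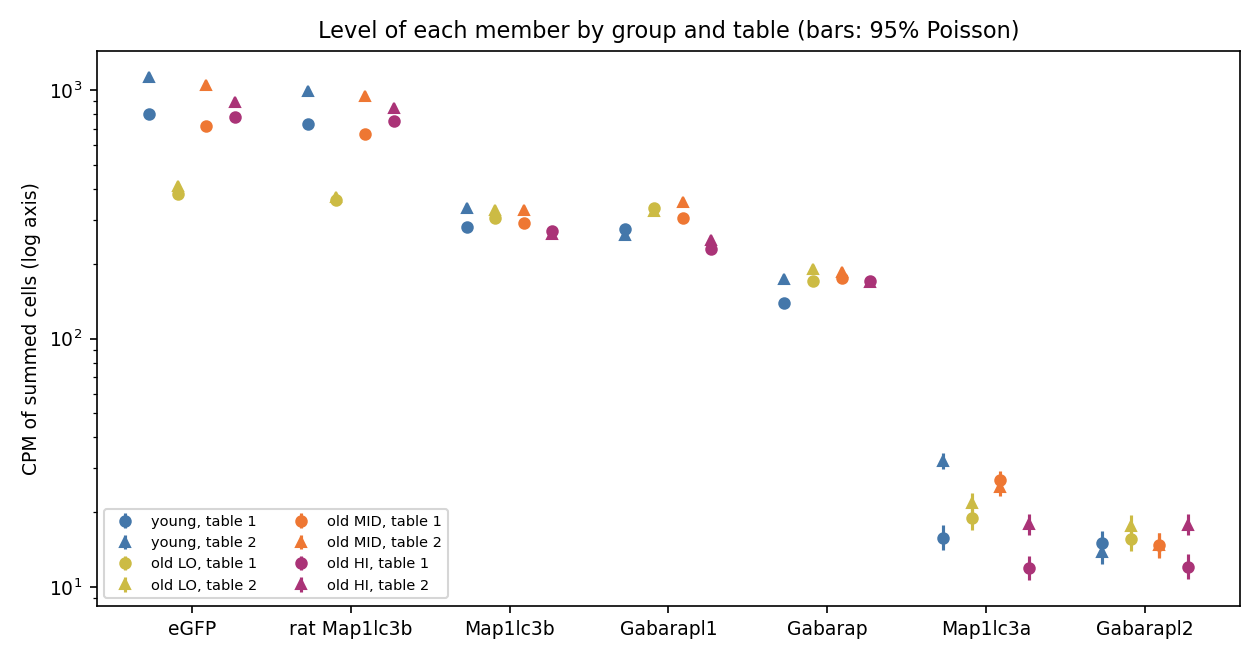
Level of each member in CPM of the summed cells, on a log axis, by group (colour) and table (circle: first, triangle: second); bars are 95% Poisson intervals and are often smaller than the symbol. The 2 LO values of eGFP and of rat Map1lc3b lie apart from the other 6, and the values of Map1lc3b, Gabarapl1 and Gabarap lie close together.

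**Figure D3:**
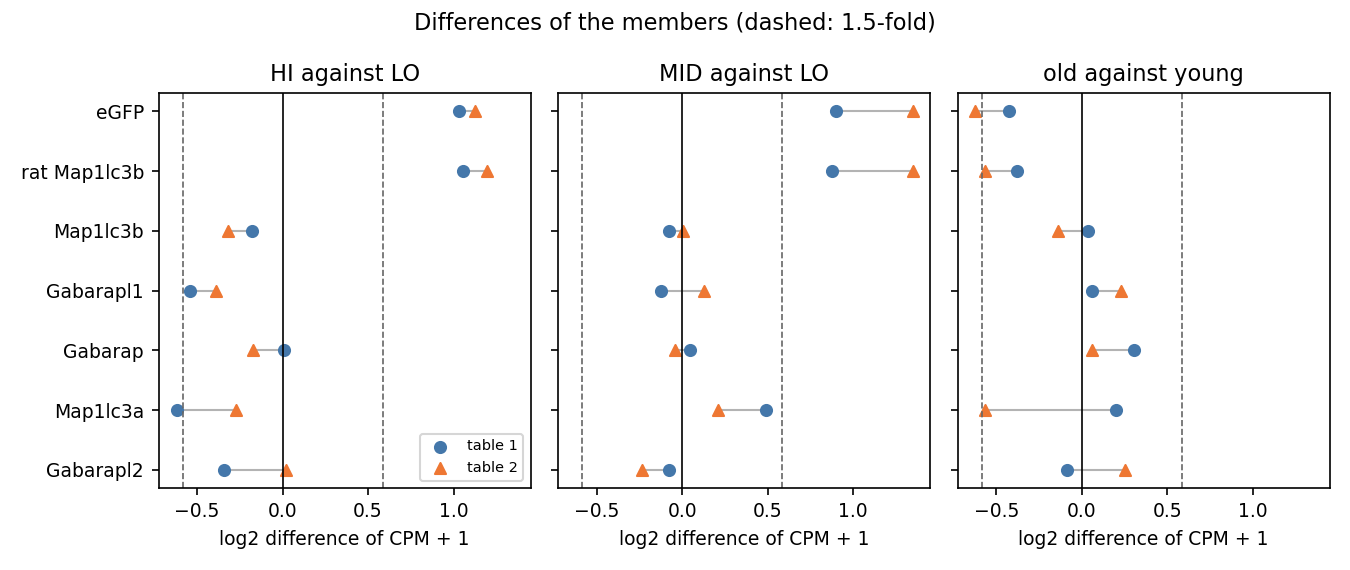
Log2 difference of CPM plus 1 of each member in HI against LO, MID against LO and old against young cells, with a circle for the first and a triangle for the second table; dashed lines mark 1.5-fold. Only eGFP and rat Map1lc3b lie past the line in each table, and only against LO.

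Per length, 3 genes made up nearly all of the family's mouse RNA. Divided by the length of the principal transcript, mean levels were 160.4 CPM per kilobase for Gabarapl1, 127.1 for Gabarap, 118.8 for Map1lc3b, 19.2 for Map1lc3a and 9.05 for Gabarapl2. Gabarapl1, Gabarap and Map1lc3b thus made up 36.9%, 29.2% and 27.3% of the summed level per length, and Map1lc3a and Gabarapl2 4.42% and 2.08%. By group, Gabarapl1 was first in young, LO, MID and HI cells, at 147, 181, 182 and 131.2 CPM per kilobase. Gabarap and Map1lc3b were close neighbours: from young to LO, MID and HI, Gabarap was at 115.7, 133.5, 133.4 and 125.8 and Map1lc3b at 121.9, 125.4, 122.4 and 105.4. Over all annotated exonic bases, a choice made after seeing the data, Map1lc3b was at 40.01, with 7517 exonic bases in place of 2532, and the order was Gabarapl1, Gabarap, Map1lc3b, Map1lc3a, Gabarapl2 as before. The transgene entries have no length in the annotation used here and were not placed in this order.

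Detection followed the levels. Thinned to 100000 nuclear gene reads per cell, which left 501 cells, Map1lc3b was read in 95.9% to 99.2% of the cells of a group, Gabarapl1 in 94.3% to 98.4% and Gabarap in 92.2% to 97.6%. Gabarapl2 was read in 50.8% of young (41.8% to 59.7%), 54.5% of LO, 58.3% of MID and 56.9% of HI cells (47.7% to 65.8%), where unthinned shares were 62.7%, 67.6%, 67.9% and 73.6%. Map1lc3a was read in 28.1% of young (20.5% to 36.8%), 34.1% of LO, 37.8% of MID (29.3% to 46.8%) and 34.96% of HI cells, with unthinned shares of 32.1%, 38.2%, 42.5% and 39.5%. For both genes the intervals of all groups overlapped. The transgene entries were read in every thinned young and HI cell. In LO, eGFP was read in 91.1% of thinned cells (84.6% to 95.5%) and rat Map1lc3b in 89.4% (82.6% to 94.3%), and in MID in 97.6% and 96.9%. Each of the 501 thinned cells had reads of at least 2 of the 5 mouse members, and all 5 were read in 14.8% of young, 14.6% of LO, 22.8% of MID (15.9% to 31.1%) and 14.6% of HI cells.

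Levels of the transgene and of the 3 abundant mouse genes varied less from cell to cell than the median entry, and those of Map1lc3a more. The coefficient of variation of CPM per cell, averaged over groups and tables, was 82.1% for eGFP, 74.4% for Map1lc3b, 73.9% for Gabarap and 77.03% for Gabarapl1, against a median of 164% over the 10723 entries. It was 197% for Map1lc3a and 133.9% for Gabarapl2. This measure falls with the level of a gene, which was not adjusted for. For eGFP it was largest in LO, at 119.3% in the first and 92.99% in the second table, against 67.8% to 70.4% in HI.

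Cell by cell, reads of the transgene and of the mouse genes were weakly correlated at most. The correlation of eGFP and Map1lc3b had a mean of 0.09 over the 8 sets of cells (0.01 to 0.27). With Gabarapl1 it was 0.08, with Map1lc3a 0.08, with Gabarap -0.01 and with Gabarapl2 -0.004. Over all other entries that entered, the mean correlation with eGFP had a median of 0.0016, and 5% to 95% of entries lay between -0.092 and 0.085. The value for Map1lc3b, 0.091, lies just above that range. Those for Gabarapl1, 0.083, and Map1lc3a, 0.080, lie just inside its upper end. The values for Map1lc3b and its relatives are weak, between entries counted in the same library of a cell, and are no finding.

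Among mouse members the correlations were low as well. The 10 pairs had mean correlations of 0.01 to 0.15, with a median of 0.08. In 2 pairs it was above 0 in all 8 sets: Map1lc3b with Gabarapl2, the highest at 0.15 (0.08 to 0.29), and Map1lc3b with Gabarap at 0.12 (0.01 to 0.19). Over all other entries the mean correlation with Map1lc3b had a median of -0.01, and 5% to 95% lay between -0.11 and 0.08, so both pairs were above most entries while still weak. The widest range was that of Map1lc3b with Gabarapl1, from -0.15 in LO cells of the first table to 0.47 in LO cells of the second. Correlations with measures of a cell used CPM per cell of all kept cells, without thinning. With the number of nuclear gene reads of a cell, eGFP had a mean correlation of 0.15 and Map1lc3b of -0.04. With the number of G2 and M phase markers read, eGFP was at -0.11 and Gabarapl1 at -0.12.

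**Figure D4:**
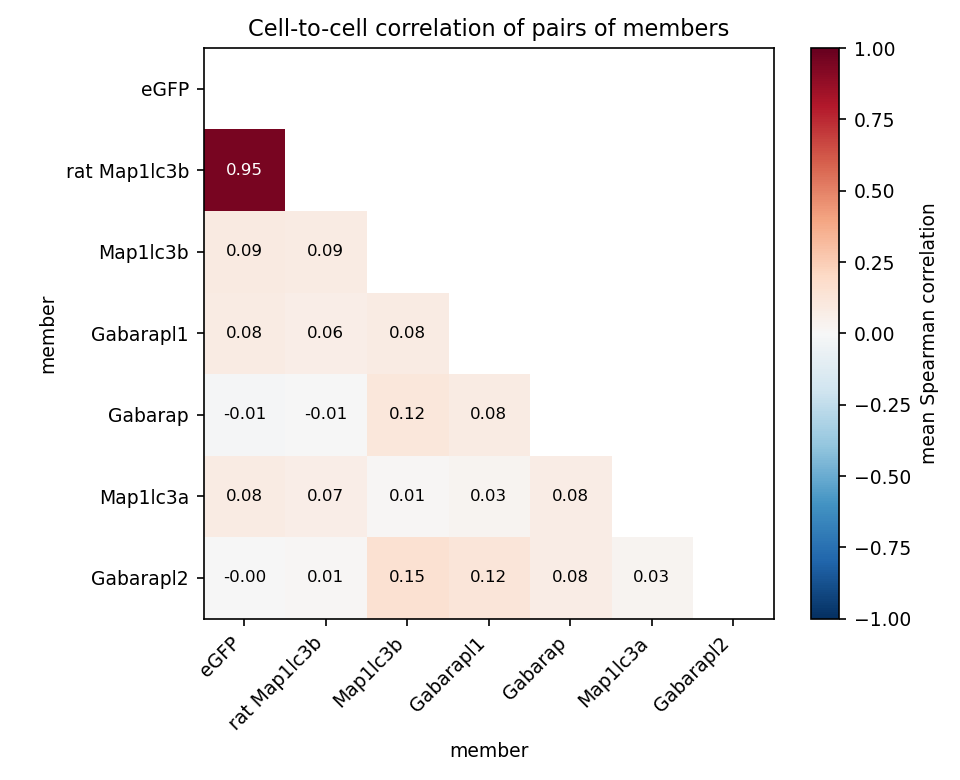
Mean Spearman correlation of each pair of members over the 8 sets of cells made by group and table, after thinning to 100000 reads; colour runs from -1 to 1. The 2 transgene entries are at 0.95 and all other pairs lie between -0.01 and 0.15.

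Outside the members, the entry most like eGFP across cells was a retrocopy of Map1lc3b. Gm6055 (ENSMUSG00000062081; chromosome 14, 48079375 to 48079752, minus strand), a processed pseudogene, had a mean correlation with eGFP of 0.57 (0.46 to 0.68) and with rat Map1lc3b of 0.58. The next were Cd274, which encodes the checkpoint ligand PD-L1, at 0.18, Utp6 at 0.16, Klk8, a kallikrein protease, at 0.16 and Ppp1r9b at 0.16. For mouse Map1lc3b, Gm6055 was again first, at 0.27 (0.15 to 0.41), followed by Ifitm1, an interferon-induced membrane protein, at 0.196, Prtn3, a granule protease, at 0.195, Gstm2-ps1 at 0.19 and Meg3, a noncoding RNA, at 0.18. These lower values are weak and serve as a description only. Of 10716 entries compared with eGFP, 79 were above 0 in all 8 sets, and of 10715 compared with Map1lc3b, 57.

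Gm6055 and Map1lc3b are close to identical in sequence, and few reads can tell their coding parts apart. Over 378 aligned bases, the whole coding sequence, they differ in 1. The 90-base window below holds that base in capitals (GENCODE M21, GRCm38, 5′ to 3′ on the strand of Map1lc3b's transcript).
Map1lc3b: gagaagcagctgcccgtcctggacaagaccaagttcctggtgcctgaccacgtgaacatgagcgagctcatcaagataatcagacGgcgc
Gm6055: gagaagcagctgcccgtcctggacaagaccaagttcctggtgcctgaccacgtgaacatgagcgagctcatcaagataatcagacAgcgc
Of the 329 stretches of 50 bases in the coding sequence of Map1lc3b, 96.4% occur in transcripts of other genes as well, and 279 of them in Gm6055. Over its whole transcript the share was 13.8%, so most stretches found in Map1lc3b alone lie outside its coding part. A second such pair is Gabarapl2 and the processed pseudogene Gm3724 (ENSMUSG00000106133; chromosome 5, 24118316 to 24118664, minus strand). They differ in 2 of 349 aligned bases, 1 of which lies in the 90 bases below, again in capitals.
Gabarapl2: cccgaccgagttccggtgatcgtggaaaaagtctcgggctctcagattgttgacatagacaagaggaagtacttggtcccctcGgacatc
Gm3724: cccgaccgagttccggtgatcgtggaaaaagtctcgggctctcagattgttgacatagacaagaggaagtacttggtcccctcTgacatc
For Gabarapl2, 90.8% of 305 coding stretches were shared with other genes. For Gabarapl1 it was 14.1%, all with its neighbour 1700101I11Rik, and for Gabarap and Map1lc3a none.

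Levels of Gm6055 went with the transgene across the groups more than with mouse Map1lc3b. Its young, LO, MID and HI levels were 32.5, 18.7, 30.3 and 32.4 CPM in the first table, and 39.9, 24.1, 43.4 and 36.5 in the second. LO was the lowest group in each table, as for eGFP. MID was above LO by 0.66 and 0.82, which passed the 1.5-fold rule, and HI by 0.76 and 0.576, where the second value is just under the bound of 0.585. Per 1000 reads of rat Map1lc3b there were 43.2 to 51.9 reads of Gm6055 in the first table and 40.2 to 65.1 in the second, with LO highest in each. Per 1000 reads of mouse Map1lc3b there were 61.1 and 73.5 in LO and 103.98 to 138.9 in the other groups. The rat sequence was not used here, so how reads of the transgene, Map1lc3b and Gm6055 were split was not tested, and the level of each is uncertain to that extent. Gm3724 correlated with Gabarapl2 at 0.48 (0.30 to 0.70) and with eGFP at 0.04. Its level was 7.12 CPM in young cells of the first table, the lowest, and 10.9 in LO cells of the second, the highest. How reads of Gabarapl2 and Gm3724 were split was not tested either, so the level and detection of Gabarapl2 are uncertain as well.

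**Figure D5:**
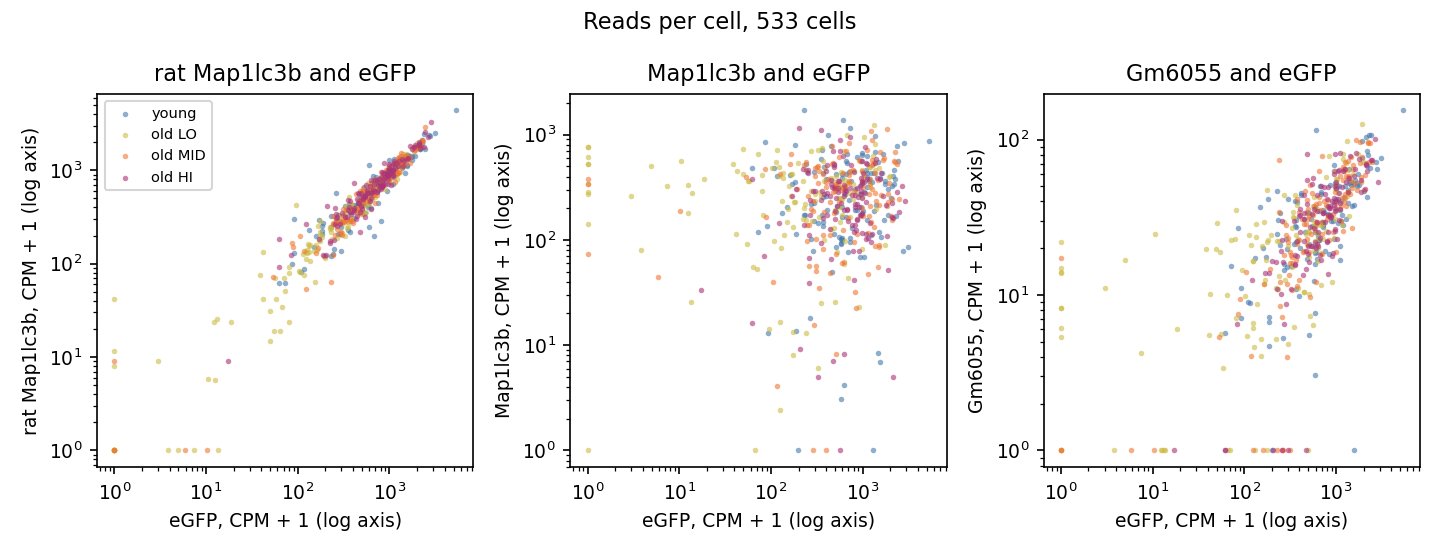
Level per cell of rat Map1lc3b (left), mouse Map1lc3b (middle) and Gm6055 (right) against eGFP, as CPM plus 1 on log axes, with 533 cells coloured by group. Rat Map1lc3b follows eGFP closely and Gm6055 more loosely, while mouse Map1lc3b spreads over its range at every eGFP level.

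Genes that act on the family were looked at as 3 lists. Of 12 genes that process LC3 and GABARAP proteins or join them to lipid, 11 entered, and 0 were called in HI against LO, MID against LO or old against young. Called shares over all entries, higher and lower, were 4.81% and 3.27%, 1.54% and 1.62%, and 3.43% and 3.07%, so a count of 0 in a list this short is close to the background and is not a result about the list. Their median differences were -0.13, 0.02 and -0.03, where the median of all entries was 0.02 in the first, 0.01 in the second and -0.004 in the third. Atg12, the ubiquitin-like part of the conjugating complex, was highest in old against young at 0.27 and 0.84, with Atg7, the activating enzyme, at -0.23 and 0.86. Atg10, the enzyme that joins ATG12 to ATG5, was lowest at -0.79 and -0.40, and Atg16l1 was at -0.16 and -0.33. In HI against LO, Atg4b, the main LC3 protease, was at 0.15 and 0.59 and Atg10 at -0.11 and 0.70, while Atg16l1 was at -0.23 and -0.60 and Atg16l2 at -0.76 and 0.05. None of these passed the bound in both tables.

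Of 16 cargo receptors and adaptors that bind LC3 or GABARAP, 14 entered and 0 were called in any of the 3 comparisons, again close to the background shares, with medians of -0.11 in HI against LO, -0.09 in MID against LO and -0.17 in old against young. In old against young, Tax1bp1, a receptor for ubiquitin-marked cargo, was at 0.37 and 0.30 and Optn at 0.24 and 0.21. Retreg1, the receptor for endoplasmic reticulum, was at -0.50 and -0.80 and Plekhm1, an adaptor for lysosome fusion, at -1.26 and -0.26. In HI against LO, Nbr1, a receptor for ubiquitin-marked cargo, was at -0.38 and -0.52 and Tex264, another endoplasmic reticulum receptor, at -0.53 and -0.30, while Optn was at -0.07 and 0.77 and Plekhm1 at 0.14 and 0.17.

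All 7 transcription factors linked to autophagy genes entered and 0 were called, which at the background shares says little of so short a list. They had medians of -0.13 in HI against LO, -0.03 in MID against LO and -0.09 in old against young. Foxo3, a forkhead factor known for keeping autophagy genes active in HSCs, stood at 272, 219, 181 and 164 CPM in the young, LO, MID and HI groups. It was at -0.46 and -0.62 in old against young and at -0.42 and -0.42 in HI against LO, with 1 value of the 4 past the 1.5-fold bound. In old against young, Foxo4 was at -0.43 and -0.84, Tfe3 at 0.93 and -0.35 and Zkscan3, a repressor of autophagy genes, at 0.08 and -0.17. In HI against LO, Tfe3 was at -0.05 and 0.67, Tfeb, a main activator of lysosomal genes, at -0.17 and 0.56, and Mitf at -0.58 and 0.13.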

How the data were processed

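Each library is 1 sorted bone marrow cell, made by a variant of Smart-seq2, per the labels' protocols. Unscaled counts of reads for every gene and transgene sequence were deposited by the authors in 2 tables, with 1 column per cell, and the whole-number counts carry no molecular identifiers. The submitters' processing notes name, without roles, the build mm10 and the tools featureCounts 2.0.0, Subread, STAR 2.7.3a and DESeq2. Entries for reads given to no gene are named as HTSeq names them, so how overlapping genes were counted is not given in the sources used here. Of all reads, 21.8% in the first and 24.4% in the second table lay in nuclear genes, 34.8% and 31.5% had no feature, 38.7% and 38.8% did not align and 3.80% and 4.26% were ambiguous. These and the 92 spike-in entries stayed out of the totals.

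Cells had to have 50000 nuclear gene reads, 1000 genes and no more than 20% mitochondrial reads, and 30 failed. No doublets were called, since cells were sorted singly. Counts were summed per group and table, scaled with TMM factors (equal to those of edgeR 4.0.16 in R 4.3.3) and compared as log2 of CPM plus 1. Levels per cell are CPM without those factors. An entry took part with a mean of at least 10 CPM and a read in at least 10% of cells. Names and sequences came from GENCODE M21, and Python 3.11.15, NumPy 2.4.6, pandas 2.3.3, SciPy 1.17.1, Biopython 1.88 and matplotlib 3.10.9 were used. Correlations are Spearman's, in each of the 8 sets of cells. Those between entries were made after thinning, which left out 32 cells. Those with numbers of nuclear gene reads or of G2 and M phase markers used CPM of all kept cells. Since no label names an animal, no test was made.

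The members, marker lists and gene lists were chosen with earlier results of these data known. A marker gene of the HSC list is not reported here. Named genes are the members, the 5 entries with the highest mean correlation with eGFP and with Map1lc3b that were above 0 in all 8 sets, and up to 2 highest and 2 lowest of each list in old against young and in HI against LO. Gm3724 was named after its values were seen. The scripts were tested on simulated data. Alternatives were median-ratio factors as in DESeq2 1.42.0, no factors, spike-in scaling, pseudocounts of 0.1 and 10 CPM, other filters on entries and cells, means over cells, each table alone, and other thinning depths.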

Additional observations from a re-analysis of the deposited data

How the results depend on the processing

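The differences HI against LO, MID against LO and old against young were recomputed under 16 alternatives. Those of single old groups against young and of HI against MID were not. The number of members past 1.5-fold in HI against LO was 2, and 3 in the first table alone, where Map1lc3a was at -0.62. In MID against LO it was 2, and 0 without the 218 cells that had 3 or more markers of another cell type, a setting that takes away 67 LO and 59 MID cells. In old against young it was 0, and 1 in the second table alone, where eGFP was at -0.63. The difference of eGFP ranged from 0.88 to 1.57 in HI against LO, from 0.80 to 1.35 in MID against LO and from -0.63 to -0.28 in old against young, with 1 direction in each. Leaving out cells without a transgene read was chosen after seeing the data. Between HI and LO, Map1lc3b kept its sign in 15, Gabarapl1 in 15 and Gabarap in 13 of 16, and spike-in scaling was the exception for Map1lc3b and Gabarapl1. Among the 16, other filters on entries cannot change the value of a member, and each table alone is a part of the main mean. The mean correlation of eGFP and rat Map1lc3b stayed between 0.95 and 0.96 and that of eGFP and Map1lc3b between 0.06 and 0.09 under 4 alternatives. Each group is 1 sample, so animals and groups cannot be told apart. Every difference was taken within a table. No paired analysis was possible because cell numbers name no animal and no model was fitted.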
